A study of Mus musculus with 12 samples.

Results

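The cytosolic ribosomal protein genes were taken as a set from the gene table of sorted bone marrow myeloid cells of the mouse. The members were all symbols that start with Rpl or Rps and a digit, together with Rpsa, Rplp0, Rplp1 and Rplp2. Of 392 symbols of this form, 289 with pseudogene names (-ps) and 10 of the Rps6k kinases were left out, which gave 93 genes of the 56953 in the table. The annotation calls 86 of them protein coding and 7 pseudogenes (Rps3a2, Rps3a3, Rpl6l, Rpl32l, Rpl37rt, Rps4l and Rps12l1). Rpl10l and Rps12l1 had no count in any library, so that 91 members were tested. The rule goes by name alone, and it also takes in Rps19bp1, which encodes a protein that binds Rps19 and is no part of the ribosome. The set holds 43 genes of the large subunit, 31 of the small subunit, 3 of the stalk, 8 paralogs or genes with a related name and 8 retrocopies or pseudogenes.

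A ribosome joins a small subunit, which reads the mRNA, to a large subunit, which forms the peptide bond. Its proteins are made in near equal numbers and their mRNAs are among the most abundant of a growing cell, where their translation is switched by mTOR signalling through a common start of the mRNA. Ribosomal protein mRNAs are also often copied back into the genome, so that most of these genes have processed pseudogenes that look like the spliced mRNA.

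The samples came from 8-week-old female C57BL/6J mice of the genotype Rank cre/+;R26.eYFP fl/+, in which Cre driven from the Rank locus switches on eYFP for good. The 4 groups have 3 libraries each. Macrophages with eYFP (eYFP+) descend from embryonic progenitors that had expressed Rank, and macrophages without it (eYFP-) were taken as the progeny of adult haematopoietic stem cells. Both were sorted as F4/80hi cells, while CD11b+ monocytes were sorted as Ly6Chi or Ly6Clo, all from the same reporter genotype. A macrophage of embryonic origin in which Cre had failed would be counted as eYFP-. Whether the 3 libraries of a group came from separate mice is not stated, so the p-values measure the spread between these libraries, which may be technical.

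Depth ran from 26390927 to 48618187 counts per library. Macrophage markers (Adgre1, Vcam1, Mrc1, Cd5l, C1qa, Csf1r) summed to 1031677 to 1537911 normalized counts in macrophage libraries and to 52254 to 228215 in monocyte libraries, where a normalized count is a count divided by the size factor of its library. Monocyte markers (5 genes, among them Ly6c2, Ccr2 and Itgam) summed to at most 3732 in macrophage libraries and to at least 49910 in monocyte libraries. Ly6Clo replicate 2 stood apart from the other libraries. It detected 16434 genes, the fewest of all 12, and its ribosomal protein genes had a median log2 ratio of -1.05 to the other libraries of its group, with 80 of 90 below 0. The tenth of genes richest in GC stood at -1.24 in the same library. In eYFP+ replicate 1 the GC-rich genes also stood low, at -0.72, while the median of the ribosomal protein genes was 0.00. The counts of called members and some genes are therefore given with and without Ly6Clo replicate 2. The splits by class and abundance, the other lists and the sums with copies are given with all libraries only.

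The reads were assigned only where they belonged to 1 gene, and the near-identical sequences of members and copies show what that means for the values. The 4 pairs printed here are 60-base windows of coding sequence in the direction of the mRNA, from GENCODE M21 on the build GRCm38, and capitals mark the bases that differ between both sequences of a pair. The counts themselves were made on GRCm39, so the positions serve only to place the sequences. Rps6, the small-subunit protein phosphorylated by the S6 kinases, lies in exon 2 at chr4:86856800-86856859 (minus strand) and its copy Rps6-ps4 at chr2:75191757-75191816 (minus strand), and no base differs over all 747 coding bases.
Rps6: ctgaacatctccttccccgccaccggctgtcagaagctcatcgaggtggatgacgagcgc
Rps6-ps4: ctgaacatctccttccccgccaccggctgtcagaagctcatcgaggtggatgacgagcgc
Rpl3, which reaches toward the site of peptide bond formation, is shown from exon 2 at chr15:80082523-80082582 (minus strand) beside Rpl3-ps1 at chrX:13202575-13202634 (plus strand), which is identical at 1207 of 1209 coding bases.
Rpl3: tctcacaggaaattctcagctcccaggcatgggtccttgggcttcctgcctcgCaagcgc
Rpl3-ps1: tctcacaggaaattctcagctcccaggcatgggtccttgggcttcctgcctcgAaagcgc
Rps27, a zinc finger protein of the small subunit, is shown from exon 2 at chr3:90213242-90213301 (minus strand) beside its retrocopy Rps27rt, itself a member, at chr9:114982642-114982701 (minus strand), with 252 of 252 coding bases identical.
Rps27: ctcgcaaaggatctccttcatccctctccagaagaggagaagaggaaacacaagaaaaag
Rps27rt: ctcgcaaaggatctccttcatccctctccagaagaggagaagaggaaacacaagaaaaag
The last pair is a true paralog, Rpl3l, known from striated muscle, which differs from Rpl3 at 23 of the 60 bases of exon 7 (Rpl3 at chr15:80078743-80078802, minus strand, and Rpl3l at chr17:24733923-24733982, plus strand) and is identical at 73.4% of the 1209 coding bases.
Rpl3: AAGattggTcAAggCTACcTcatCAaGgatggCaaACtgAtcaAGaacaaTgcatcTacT
Rpl3l: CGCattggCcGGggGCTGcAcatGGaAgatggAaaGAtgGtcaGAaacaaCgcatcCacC

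Counts were also assigned to copies. A copy was defined here as an annotated pseudogene outside the set that shares at least 20 stretches of 50 bases with a member. This gave 808 copies, 751 of them with a count. Members were not counted as copies, so Rps27rt is not among the copies of Rps27, nor Rpl37rt among those of Rpl37. At least 1 copy exists for 84 of the 93 members, with a median of 4 copies and up to 87 for Rpl7a. The copies held 60.2% to 65.5% of the counts of members and copies together in each library, and for 60 members they held more counts than the member itself. Rps6 had a mean of 376 normalized counts over the 12 libraries, while its pseudogene Rps6-ps4 had 13389. Rpl3 had 2589 and Rpl3-ps1 had 17628. Rps27 had 351 and the retrocopy Rps27rt had 14144. Where the sequences are identical, the counts do not tell which of the loci was transcribed. Rpl4 (ENSMUSG00000032399), with 1 copy, had 37008, and the copy had 15690.

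**Figure D1:**
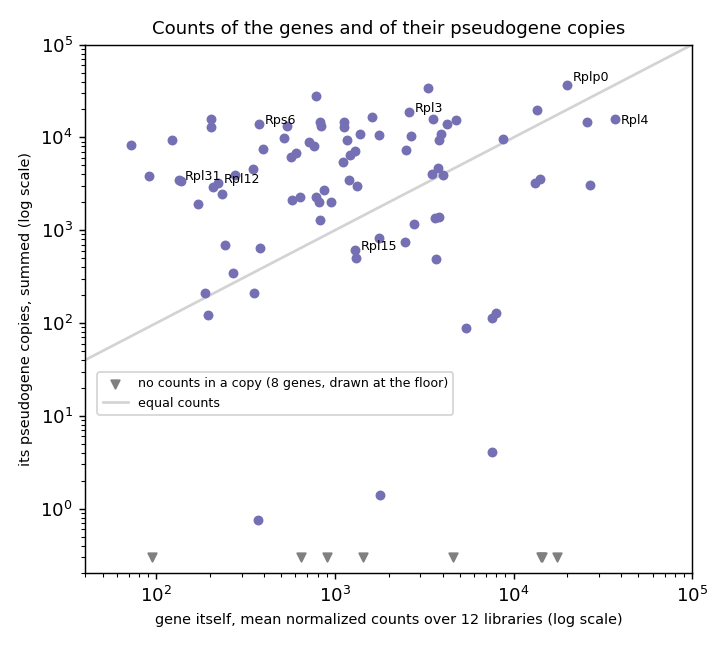
Mean normalized counts over the 12 libraries of each of 90 genes (x axis, log scale) against the summed counts of its pseudogene copies (y axis, log scale). The line marks equal counts. For 60 genes the copies lie above the line, and triangles at the lower edge mark 8 genes with no counts in a copy.

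Levels per length differed widely among the members. On the scale of TPM, which divides counts by gene length and gives every library the same sum, the 90 members with a mean of at least 50 normalized counts spanned 565-fold. Rps27rt had the highest mean over the 12 libraries with 1851 TPM, followed by the small-subunit gene Rps9 with 1394, the very short large-subunit gene Rpl41 with 1206 and Rpl4 with 1189 TPM. The lowest were Rpl3l with 3.28, Rpl24 with 5.29, Rpl31 with 6.36, Rpl17 with 6.42 and Rps10 with 7.06 TPM. Rpl24 and Rps10 had means of 71.6 and 123 normalized counts, and their copies had 8294 and 9401. Across the members the TPM value was related weakly to the number of copies (Spearman's rho -0.33 over 90 genes, which are not independent and share the libraries) and not to the share of 50-base stretches unique to the gene (rho 0.03). The order of these levels describes the deposited table, and whether reads of the genes were counted in their copies was not tested.

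The share of all counts that fell on the 93 genes separated macrophages from monocytes. It was 0.531%, 0.646% and 0.5% in the eYFP+ macrophages and 0.669%, 0.771% and 0.761% in the eYFP- macrophages. It was 1.31%, 1.41% and 1.29% in the Ly6Chi monocytes and 1.44%, 0.855% and 1.48% in the Ly6Clo monocytes. All 6 macrophage libraries lay below all 6 monocyte libraries, with Ly6Clo replicate 2 the closest. The group means were 0.559% ± 0.0769 for eYFP+ macrophages, 0.734% ± 0.0562 for eYFP- macrophages, 1.26% ± 0.350 for Ly6Clo monocytes and 1.34% ± 0.0643 for Ly6Chi monocytes (SD, n = 3 each). The monocyte groups overlapped, and their order rests on Ly6Clo replicate 2, without which both Ly6Clo libraries lay above all Ly6Chi libraries. The macrophage groups did not, although the highest eYFP+ library and the lowest eYFP- library were close. The copies held 0.905% ± 0.144 of the counts in eYFP+ macrophages, 1.22% ± 0.146 in eYFP- macrophages, 2.23% ± 0.815 in Ly6Clo monocytes and 2.42% ± 0.157 in Ly6Chi monocytes. Here the groups overlapped, with 1.29% in Ly6Clo replicate 2 and 1.32% in eYFP- replicate 2, and with 1.07% in eYFP+ replicate 2 and 1.05% in eYFP- replicate 1. The other Ly6Clo libraries, at 2.73% and 2.67%, again lay above the highest Ly6Chi library at 2.59%. In sorted bulk samples, fewer cells of a type and less RNA per cell cannot be told apart.

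**Figure D2:**
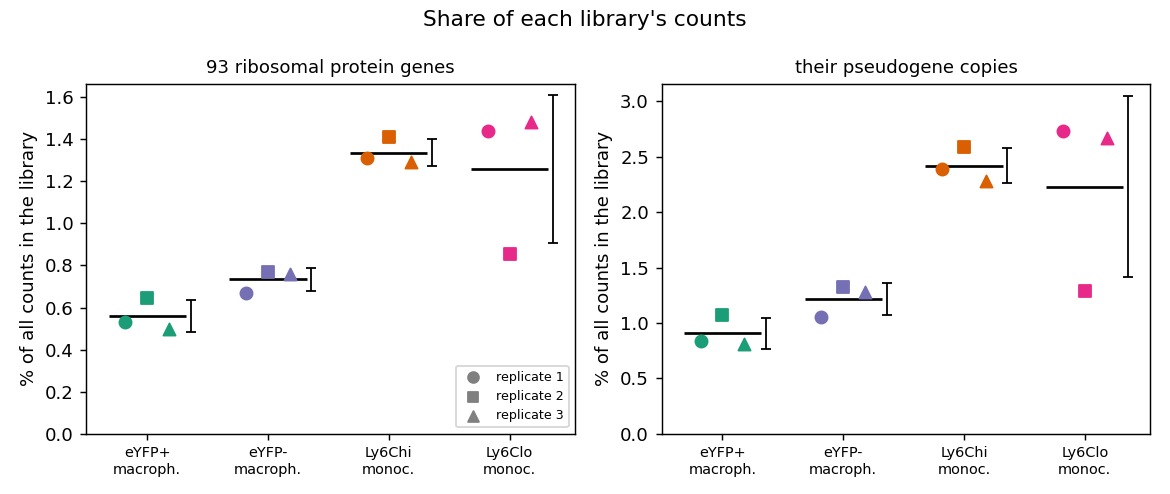
Percent of each library's counts on the 93 ribosomal protein genes (left) and on their pseudogene copies (right), by group; symbols mark replicates, horizontal lines the mean and bars 1 SD (n = 3). Macrophage libraries lie between 0.5% and 0.771% on the left, monocyte libraries between 0.855% and 1.48%, with Ly6Clo replicate 2 the lowest of the monocytes.

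Macrophages were compared with monocytes first, as the means of both groups of each. Ribosomal protein genes were lower in macrophages: 50 of 91 fell and 2 rose (DESeq2 adjusted p under 0.05). These are 54.9% and 2.2% of the members, where 15.0% of all genes tested fell and 20.3% rose. The median log2 difference of the members was -0.77, which is 0.59-fold, beside 0.08 over all genes tested, and 80 of 91 members were below 0. With edgeR 48 fell and 1 rose, beside 15.8% and 19.8% of all genes, and 49 genes were called by both tools. A fall of at least 2-fold was called in 26 members, beside 11.0% of all genes. All macrophage libraries lay below all monocyte libraries in 19 members and above them in 1, beside 6.94% and 10.7% of all genes. Without Ly6Clo replicate 2 the fall was called in 69 members and the rise in 2, beside 17.7% and 21.6%, with a median of -0.96.

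Rpl4 (ENSMUSG00000032399), which lines the tunnel for the growing peptide, was the most abundant of the set by counts. It had 19603, 21663 and 16919 normalized counts in the eYFP+ macrophages, 28745, 25730 and 25571 in the eYFP- macrophages, 49525, 50651 and 47557 in the Ly6Chi monocytes and 49785, 52272 and 56079 in the Ly6Clo monocytes. No macrophage library reached a monocyte library, and Ly6Clo replicate 2 was not low for this gene. The log2 difference between macrophages and monocytes was -1.16 ± 0.13 (SE; DESeq2 adjusted p = 1.66e-17, edgeR adjusted p = 2.1e-05).

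Rplp0 (ENSMUSG00000067274) encodes the scaffold of the stalk that recruits elongation factors. It had 8760, 9408 and 8154 normalized counts in eYFP+ macrophages, 15996, 13411 and 13894 in eYFP- macrophages, 33444, 34714 and 32647 in Ly6Chi monocytes and 23979, 17232 and 27168 in Ly6Clo monocytes. The 4 groups did not overlap at all and stood in this order with Ly6Clo monocytes before Ly6Chi monocytes. The log2 difference between macrophages and monocytes was -1.30 ± 0.17 (DESeq2 adjusted p = 9.3e-14). Of the acidic stalk proteins, Rplp2 fell by 0.96 ± 0.37 on the log2 scale with overlapping groups (DESeq2 adjusted p = 0.0284), and Rplp1, with a difference of -0.25 ± 0.34, did not pass (DESeq2 adjusted p = 0.614).

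Rps14, a small-subunit gene known from anaemia with loss of part of a chromosome arm, ranged from 5726 to 8365 normalized counts in the macrophage libraries and from 17232 to 22361 in the monocyte libraries. Its log2 difference was -1.38 ± 0.16 (DESeq2 adjusted p = 2.69e-17). Rps19, the gene most often mutated in Diamond-Blackfan anaemia, ranged from 693 to 1280 in macrophages and from 1880 to 3088 in monocytes, a log2 difference of -1.18 ± 0.18 (DESeq2 adjusted p = 1.36e-09). Neither gene had a macrophage library among the monocyte values. The retrocopy Rps27rt, whose coding sequence is that of Rps27, ranged from 5002 to 9515 in macrophages and from 14563 to 32206 in monocytes, and its difference was -1.61 ± 0.24 (DESeq2 adjusted p = 1.64e-10). Rps27 itself had -0.57 ± 0.30 (DESeq2 adjusted p = 0.123).

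**Figure D3:**
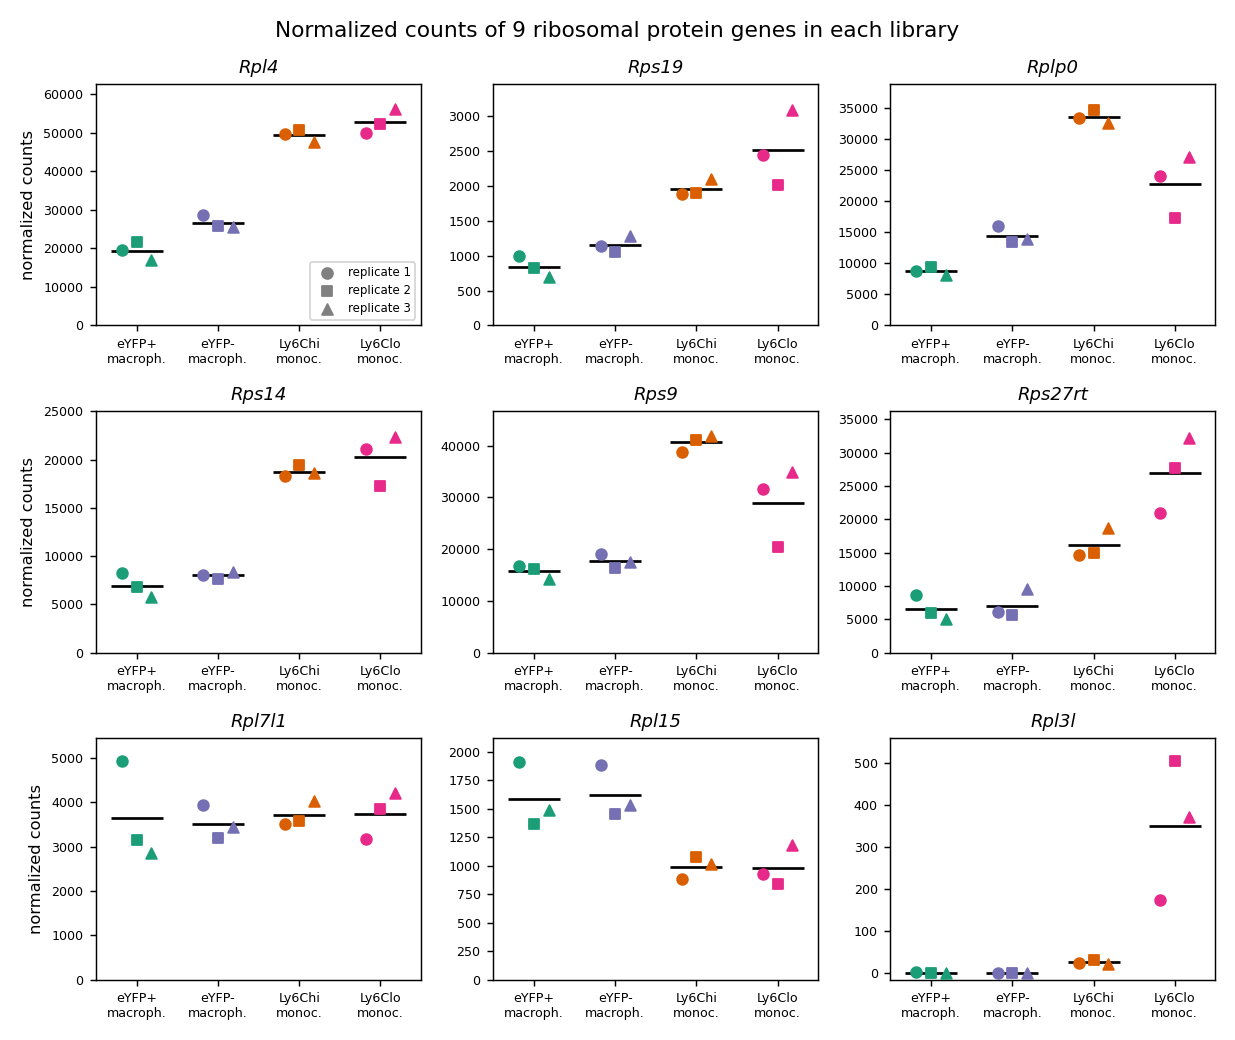
Normalized counts of 9 ribosomal protein genes in each library, by group; symbols mark replicates and horizontal lines the group mean (n = 3). In Rpl4, Rps19, Rplp0, Rps14, Rps9 and Rps27rt the macrophage libraries lie below all monocyte libraries, Rpl7l1 shows no such order, Rpl15 is higher in macrophages, and Rpl3l is near 0 outside monocytes and highest in Ly6Clo monocytes.

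Calls were found among the genes of both subunits, beside 15.0% of all genes that fell and 20.3% that rose. Of the small-subunit genes 20 of 31 fell and none rose (median log2 difference -0.83), and of the large-subunit genes 21 of 43 fell and 2 rose (median -0.68). Of the retrocopies and pseudogenes in the set, 6 of 7 tested fell (median -1.07). Of the paralogs and related names 1 of 7 tested fell, Rpl3l, with a median of -0.16 for the group, a share near that of all genes. By abundance, 24 of 33 members with over 2000 normalized counts fell (median -1.04, beside 28.7% of all genes of that abundance), 19 of 34 with 500 to 2000 (median -0.76, beside 19.2%) and 7 of 23 with 50 to 500 (median -0.32, beside 16.3%). The share of calls rose with the counts among all genes too, and the difference between the classes was not tested.

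Several paralogs had no call with all libraries. Rpl7l1, a relative of Rpl7 that acts in ribosome assembly, had a difference of -0.06 ± 0.20 and ranged from 2853 to 4938 normalized counts over all libraries, while Rpl7 fell by 1.04 ± 0.21 on the log2 scale (DESeq2 adjusted p = 4.88e-06). Rps27l, a p53 target, had -0.10 ± 0.22, and Rpl22l1 had 0.03 ± 0.17, beside -0.81 ± 0.35 for Rpl22 (DESeq2 adjusted p = 0.0564 for Rpl22). Rpl22 had 1334 normalized counts in Ly6Clo replicate 2 and at least 4490 in the other monocyte libraries, and without that library it was called at -1.07 (DESeq2 adjusted p = 5.78e-06). Rps19bp1 had -0.16 ± 0.31. Rpl36al had -0.27 ± 0.28 and its partner Rpl36a had 0.05 ± 0.31. Without Ly6Clo replicate 2 Rpl36al had -0.48 (DESeq2 adjusted p = 0.0568), and without eYFP+ replicate 1 as well it was called at -0.52 ± 0.21 (DESeq2 adjusted p = 0.0357). Rpl39l was at 0 to 6.18 normalized counts in every library and allowed no statement, while Rpl39 fell by 1.05 ± 0.41 (DESeq2 adjusted p = 0.0334, edgeR adjusted p = 0.0574). A missed threshold does not show equal levels, and the differences between paralog partners were not tested. Rpl26, with -1.07 ± 0.23 (DESeq2 adjusted p = 2.15e-05), and the X-linked Rps4x, with -1.08 ± 0.25 (DESeq2 adjusted p = 7.68e-05), were lower in macrophages, whereas the pseudogene Rps4l had -0.03 ± 0.32. Rpl37 had -0.89 ± 0.21 (DESeq2 adjusted p = 0.000144) and its retrocopy Rpl37rt -1.24 ± 0.30 (DESeq2 adjusted p = 0.000166). The laminin-receptor gene Rpsa had -1.37 ± 0.44 (DESeq2 adjusted p = 0.00666), with 1230 normalized counts in Ly6Clo replicate 2 and at least 5159 in the other monocyte libraries.

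The classical genes Rpl10 (-0.06 ± 0.19) and Rpl3 (-0.14 ± 0.21) showed no detectable difference in their own counts. The 2 genes that rose in macrophages were Rpl15 and Rpl12. Rpl15 had 1909, 1363 and 1487 normalized counts in eYFP+ macrophages and 1885, 1449 and 1534 in eYFP- macrophages, against 887, 1076 and 1012 in Ly6Chi and 926, 840 and 1179 in Ly6Clo monocytes. The groups did not overlap, and the log2 difference was 0.70 ± 0.18 (DESeq2 adjusted p = 0.000633, edgeR adjusted p = 0.00698). Rpl12, at the base of the stalk, had 223 to 324 in macrophages, 127 to 160 in Ly6Chi monocytes and 146 to 269 in Ly6Clo monocytes, a difference of 0.57 ± 0.22 (DESeq2 adjusted p = 0.0320, edgeR adjusted p = 0.0787) with overlapping groups. Without Ly6Clo replicate 2 Rpl12 lost the call (0.41, DESeq2 adjusted p = 0.0674), and Rpl15 and Rpl31 were the 2 that rose. Over the alternatives run the call of Rpl12 was lost in 17 and kept in 10. Rpl15 and Rpl12 overlap a gene on the other strand in the annotation, Rpl15 the gene Nkiras1 (mean 488 normalized counts) and Rpl12 the gene Lrsam1 (533). Such overlaps are not particular to them. Rps18 overlaps Vps52 (2770), Rps25 overlaps Trappc4 (2220) and Rpl18 overlaps Sphk2 (1780). These members were called lower in macrophages without Ly6Clo replicate 2 and eYFP+ replicate 1. The part of the overlaps in the counts was not tested.

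The copies showed the same direction as the members. Of 424 copies tested, 213 fell and 6 rose in macrophages against monocytes (DESeq2 adjusted p under 0.05), beside 15.0% and 20.3% of all genes. The median log2 difference of the copies was -0.96. Summing each member with its copies, a choice made after seeing the data, gave 73 of 91 members that fell and 0 that rose with DESeq2, beside 14.2% and 19.3% of all genes. The median was -1.01, and 90 of 91 differences were below 0. Rps6 moved from -0.47 ± 0.18 (DESeq2 adjusted p = 0.0332) alone to -1.09 (DESeq2 adjusted p = 3.21e-09) with its copies. Rpl3 moved from -0.14 to -0.72 (DESeq2 adjusted p = 0.000262), and Rps10 from 0.03 to -1.30 (DESeq2 adjusted p = 0.00939). Rpl15 kept its sign at 0.29 but lost the call (DESeq2 adjusted p = 0.211), and Rpl12 turned to -0.54 (DESeq2 adjusted p = 0.235). Every member other than Rpl15 was thus below 0 once the copies were added.

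**Figure D4:**
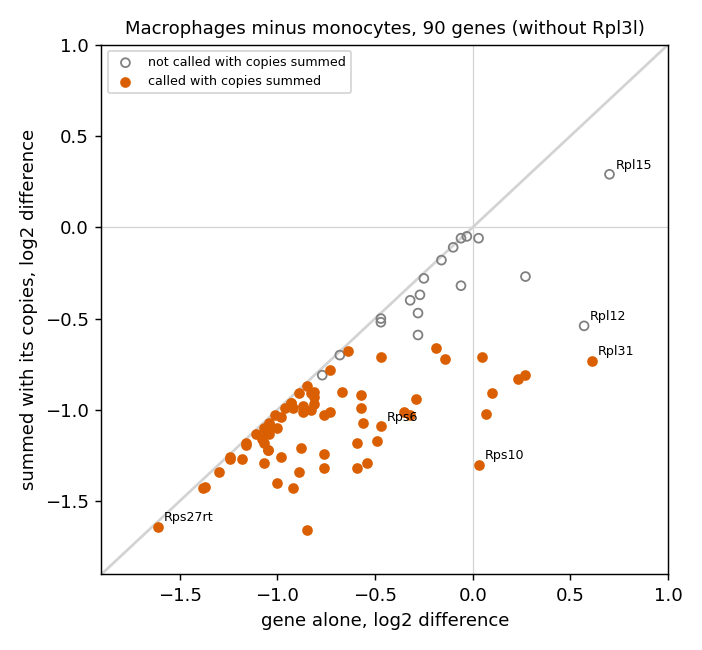
Log2 difference of macrophages minus monocytes for 90 genes from their own counts (x axis) and from counts summed with their pseudogene copies (y axis); filled points have a DESeq2 adjusted p under 0.05 in the summed fit. Most points lie on or below the diagonal. Rpl15 alone stays above 0 on the y axis, and Rpl12, Rpl31 and Rps10 are among those that move from above 0 to below it.

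Each monocyte group was then set against the macrophages. Both comparisons use the same 6 macrophage libraries. In Ly6Chi monocytes 47 of 91 members were higher and 3 lower (51.6% and 3.3%, beside 13.2% higher and 17.5% lower of all genes tested by DESeq2), with a median log2 difference of 0.85 beside -0.07 over all genes. In Ly6Clo monocytes 38 were higher and 1 lower (41.8% and 1.1%, beside 13.2% and 17.0%), with a median of 0.73 beside -0.06. All Ly6Chi libraries lay above all macrophage libraries in 64 members (70.3%, beside 18.1% of all genes) and below them in 3 (beside 19.1%). All Ly6Clo libraries lay above in 20 (beside 9.69%) and below in 1 (beside 13.9%). Without Ly6Clo replicate 2 63 members were higher and 0 lower in Ly6Clo monocytes with DESeq2 (beside 13.9% and 16.6% of all genes), with a median of 1.03. Leaving out Ly6Clo replicate 1 or 3 instead gave 23 and 24 higher (beside 12.9% and 12.8% of all genes), so that the count rests on which library is left out. Without Ly6Clo replicate 2 61 were higher and 3 lower in Ly6Chi monocytes (beside 17.1% and 20.1%). With edgeR and all libraries 40 were higher and 2 lower in Ly6Chi monocytes (beside 13.9% and 15.1%), and 35 higher and 1 lower in Ly6Clo monocytes (beside 13.4% and 14.8%). With copies summed 65 were higher in Ly6Chi monocytes (beside 10.6%) and 54 in Ly6Clo monocytes (beside 14.2%), and 0 lower in either (beside 14.1% and 18.4%).

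In Ly6Chi monocytes against macrophages the genes with the lowest adjusted p included Rplp0 (log2 difference 1.58 ± 0.20, DESeq2 adjusted p = 1.86e-13), Rpl4 (1.11 ± 0.16), Rps14 (1.33 ± 0.19), Rpl3l and Rps9. Rps9 ranged from 14144 to 18993 normalized counts in macrophages and from 38851 to 41897 in Ly6Chi monocytes (1.29 ± 0.22, DESeq2 adjusted p = 5.92e-08). The 3 lower genes were Rpl12 (-0.88 ± 0.28), Rpl15 (-0.69 ± 0.22) and Rpl31 (-0.83 ± 0.32, DESeq2 adjusted p = 0.0373, edgeR adjusted p = 0.0915). The call of Rpl31 was lost in 14 of the alternatives run and kept in 12. Like other members, Rpl31 overlaps a gene on the other strand, Tbc1d8 (mean 2140 normalized counts). With its copies summed the difference of Rpl31 was 0.95 (DESeq2 adjusted p = 0.0230), the opposite sign. In Ly6Clo monocytes the first genes included Rpl3l, Rpl4 (1.21 ± 0.16, DESeq2 adjusted p = 1.15e-12), Rps14 (1.44 ± 0.19), Rps27rt (1.99 ± 0.29) and Rps19 (1.36 ± 0.22), and Rpl15 was the lower one (-0.71 ± 0.22, DESeq2 adjusted p = 0.00760).

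**Figure D5:**
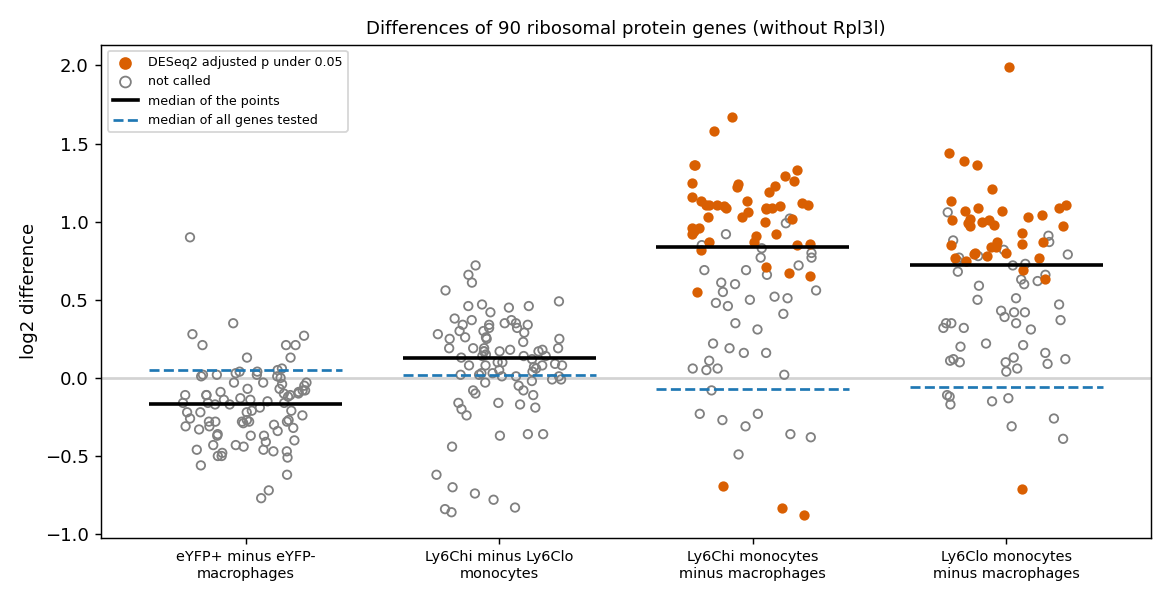
Log2 differences of 90 ribosomal protein genes (Rpl3l is left out for scale) in 4 comparisons, 1 point per gene; filled points have a DESeq2 adjusted p under 0.05 and open points do not, black lines are medians of the points and dashed lines medians of all genes tested. No drawn gene was called within macrophages or within monocytes, while most points of both comparisons of monocytes with macrophages lie above 0.

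Embryonic and adult macrophages were compared next, since the study asks how origin shapes bone marrow macrophages. No member was called in either direction by DESeq2 or by edgeR, beside 1.88% of all genes lower and 0.153% higher in eYFP+ macrophages by DESeq2, and 0.328% and 0.00521% by edgeR. At an unadjusted p under 0.05 there were 3 members with DESeq2, all lower in eYFP+ macrophages (Rplp0 and Rpl4 among them), and 3 with edgeR. Of all genes 8.77% had such a p with DESeq2, 6.06% with a lower value, and 7.42% had one with edgeR, so that the members were not called more often. Without regard to a test, 71 of 91 log2 differences were below 0, with a median of -0.16 beside 0.05 over all genes, and with copies summed 81 were below 0 with a median of -0.25. No member was called with copies summed either, beside 1.92% of all genes lower and 0.146% higher. In 17 members (18.7%, beside 8.50% of all genes) every eYFP+ library lay below every eYFP- library, and in none (beside 6.74%) did the reverse hold. Genes that share a library move together, so these counts describe 6 libraries and not 91 separate outcomes. With total-count scaling the median of the members was -0.27 and that of all genes -0.05.

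Rplp0 came closest to a call. Its normalized counts of 8760, 9408 and 8154 in eYFP+ macrophages lay below 15996, 13411 and 13894 in eYFP- macrophages, a log2 difference of -0.72 ± 0.23 (DESeq2 adjusted p = 0.0870, edgeR adjusted p = 0.256). Its copy Gm8730 had -0.71 ± 0.23 (DESeq2 adjusted p = 0.0843). Leaving Ly6Clo replicate 2 out of the joint fit, which sets the spread of each gene, left the difference at -0.72 and brought its DESeq2 adjusted p to 0.000901. A fit on the 6 macrophage libraries alone, which also leaves that library out, gave -0.72 without a call (DESeq2 adjusted p = 0.159), as did the fit with a replicate block (-0.71, DESeq2 adjusted p = 0.150). With all 12 libraries it was called with total-count scaling (-0.82, DESeq2 adjusted p = 0.0303) and with a filter of at least 10 counts in 3 libraries (-0.72, DESeq2 adjusted p = 0.0205). The call thus depends on the libraries in the fit, the scaling and the filter. Leaving out Ly6Clo replicate 2 called Rpl14 as well, a gene with 2509, 2776 and 2368 in eYFP+ and 3826, 3624 and 4296 in eYFP- macrophages (-0.62, DESeq2 adjusted p = 0.00921, against 0.742 with all libraries); Ly6Clo replicate 2 had 1881 for this gene and the other monocyte libraries at least 4510. In that fit 3.65% of all genes were lower and 0.510% higher. With eYFP+ replicate 1 left out too, 7 members were lower (among them Rplp0, Rpl14, Rpl32, Rpl32l and Rps19), beside 4.14% of all genes. Rpl4 differed by -0.46 ± 0.19 (DESeq2 adjusted p = 0.283) without overlap. Rps6 (-0.26 ± 0.26), Rpsa (-0.48 ± 0.62), Rplp1 (0.06 ± 0.47) and Rplp2 (-0.11 ± 0.52) had errors as large as their differences or larger.

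Markers of other cells also differed between the groups. In macrophages against monocytes 20.3% of all genes rose and 15.0% fell by DESeq2. The erythroid list (13 genes, among them globins and Klf1) summed to 130985 to 244118 normalized counts in eYFP+ macrophages, to 307717 to 585225 in eYFP- macrophages and to 7253 to 20793 in monocytes, with 13 of 13 genes higher in macrophages. Proliferation genes summed to 11897 to 21823 in eYFP+ and 30896 to 55482 in eYFP- macrophages, with 7 of 15 lower in eYFP+ by DESeq2 and 2 by edgeR, beside 1.88% and 0.328% of all genes. Stem and progenitor genes summed to 1483 to 3921 against 12665 to 38586, with 6 of 10 lower by DESeq2 and 2 by edgeR. Of the erythroid genes 3 of 13 were lower in eYFP+ macrophages by DESeq2 and 0 by edgeR. Neutrophil genes such as S100a8 summed to 911 to 25736 in macrophages and to 122319 to 313832 in monocytes, with 8 of 9 lower in macrophages. By DESeq2 2 of 9 neutrophil genes and 2 of 3 tested monocyte markers were lower in eYFP+ than in eYFP- macrophages, and 0 and 1 by edgeR. In Ly6Chi against Ly6Clo monocytes 3 of 10 stem and progenitor genes (median -0.40) and 2 of 15 proliferation genes were higher. There 5 of 6 macrophage markers were lower by DESeq2 and 3 by edgeR, beside 3.66% of all genes higher and 4.96% lower. Of the T, NK and B cell list 7 of 14 genes were higher in macrophages by DESeq2 and 5 by edgeR (beside 19.8% of all genes by edgeR). The sums were 18414 to 28727 in macrophages and 1219 to 4151 in monocytes. In eYFP+ minus eYFP- macrophages the median log2 difference of this list was -2.06. Its sums were higher all the same, at 23202 to 28727 in eYFP+ and 18414 to 21931 in eYFP- macrophages. Every gene of these lists had counts in each group, except 3 of the T, NK and B cell list that were at 0 in Ly6Clo monocytes, Cd8a and Ms4a1 among them. The part of these cells in the ribosomal protein values was not tested.

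Between the monocyte groups the ribosomal protein genes were close. None was higher in Ly6Chi monocytes and 1 was lower, Rpl3l, beside 3.66% of all genes higher and 4.96% lower (DESeq2), and edgeR gave the same counts of members, beside 1.81% and 2.51%. At an unadjusted p under 0.05 DESeq2 gave 6 members, 5 of them lower in Ly6Chi monocytes, and edgeR gave 5, beside 20.7% and 19.1% of all genes, which is more than among the members. The median log2 difference was 0.12 beside 0.02 over all genes with 27 of 91 below 0. Without Ly6Clo replicate 2 the median was -0.15, so that the sign of the median rests on this library, and Rpl12 was called in addition (-0.84, DESeq2 adjusted p = 0.0362), beside 5.25% of all genes lower and 4.44% higher. In 4 members all Ly6Chi libraries lay above all Ly6Clo libraries (4.4%, beside 16.2% of all genes) and in 5 below them (5.49%, beside 11.9%). The retrocopy Rps27rt was among the latter with -0.74 ± 0.34 (DESeq2 adjusted p = 0.168). Rps27 with its copies summed, Rps27rt not among them, was called at -0.91 ± 0.31 (DESeq2 adjusted p = 0.0416). In that fit 5.26% of all genes were lower and 3.95% higher.

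Rpl3l (ENSMUSG00000002500, at chr17:24727820-24736143 on the plus strand of GRCm38) was higher in Ly6Clo than in Ly6Chi monocytes. It had 174, 506 and 373 normalized counts in Ly6Clo monocytes and 25.5, 31.6 and 23.1 in Ly6Chi monocytes. In macrophages the raw counts were 3, 0 and 0 in the eYFP+ and 0, 1 and 0 in the eYFP- libraries, at the level of 3 counts that a count of 0 allows, so that no fold against macrophages is given. These limits cover counting error only. The log2 difference of Ly6Chi minus Ly6Clo monocytes was -3.72 ± 0.60 (DESeq2 adjusted p = 5.72e-08, edgeR adjusted p = 0.0254), it was not called by edgeR with a replicate block (adjusted p = 0.0719), and without Ly6Clo replicate 2, which had the highest value here, it was -3.35 (DESeq2 adjusted p = 6.38e-06). All 50-base stretches of Rpl3l are unique to it. Its level is low next to Rpl3: 12.1 ± 5.24 TPM in Ly6Clo monocytes against 96.7 ± 34.6 TPM for Rpl3 in the same libraries (SD, n = 3). Rpl3 had a difference of 0.04 ± 0.29 between the monocyte groups.

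Other parts of the translation machinery are given by lists, to be read beside the 15.0% of all genes that fell and the 20.3% that rose in macrophages against monocytes. Of 3 further ribosome components 2 fell in macrophages against monocytes: Fau, a ribosomal protein made as a fusion with a ubiquitin-like protein (-1.21 ± 0.25, DESeq2 adjusted p = 9.05e-06) and Rack1, a signalling scaffold on the small subunit (-0.79 ± 0.26, DESeq2 adjusted p = 0.00872). Fau had 271 to 476 normalized counts in macrophages and 532 to 1007 in monocytes. Of the elongation factors 5 of 8 tested fell and none rose (median -0.62), among them Eef1b2 (-0.90 ± 0.27), Eef2 (-1.10 ± 0.35) and Eef1a1 (-1.02 ± 0.36). In Ly6Clo replicate 2 Eef1a1 had 22093 and Eef2 13402 normalized counts, against at least 97955 and 39026 in the other monocyte libraries. Of the initiation factors 7 of 29 fell and 1 rose (median -0.21), beside 15.0% and 20.3% of all genes. Whether this list differs from all genes was not tested. Eif3h (-1.37 ± 0.14, DESeq2 adjusted p = 1.47e-22) and Eif3f (-1.67 ± 0.20, DESeq2 adjusted p = 2.81e-16) of the eIF3 complex came first among those that fell. Eif4a1 (0.63 ± 0.23) was the one that rose. Eif3f ranged from 4011 to 7982 in macrophages and from 13224 to 27213 in monocytes.

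Of 40 genes of ribosome assembly, 11 rose and 4 fell in macrophages against monocytes (median 0.21), beside 20.3% and 15.0% of all genes. Whether they differ from the ribosomal proteins was not tested. Wdr12 (2.01 ± 0.24, DESeq2 adjusted p = 3.98e-15) and Gnl3 (1.68 ± 0.29) rose, and Tcof1 (-1.18 ± 0.20) and Ltv1 (-0.76 ± 0.17) fell. Of 78 mitochondrial ribosomal protein genes 8 rose and 4 fell (median 0.07), both smaller shares than the 20.3% and 15.0% of all genes, with Mrpl35 (2.08 ± 0.29) first among those that rose and Mrpl33 (-1.68 ± 0.30) among those that fell. The last list holds 16 genes on the control of ribosomal protein synthesis, among them the transcription factors Myc, Mycn and Mycl. Of these 16, 2 rose and 3 fell (median 0.05), beside 20.3% and 15.0% of all genes. Myc, an activator of ribosome genes, had 1898 to 2474 normalized counts in eYFP+ and 4402 to 5313 in eYFP- macrophages, 225 to 447 in Ly6Chi and 1207 to 2332 in Ly6Clo monocytes, and rose in macrophages (2.16 ± 0.25, DESeq2 adjusted p = 5.41e-17). Eif4ebp1, which holds back cap-dependent translation, fell (-1.39 ± 0.31, DESeq2 adjusted p = 4.56e-05), with 16159 in Ly6Clo replicate 2 and at most 6927 elsewhere. Between eYFP+ and eYFP- macrophages none of these lists had a call but the last. There Mycl (-8.48 ± 1.55) and Mycn (-4.38 ± 0.99) were lower in eYFP+ macrophages with DESeq2, beside 1.88% of all genes, and none with edgeR. Their counts are not given here, and differences of this size can rest on counts near 0 in a group.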

How the data were processed

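Polyadenylated RNA of 12 sorted samples was turned into amplified cDNA without molecular identifiers. The authors removed adapters, rRNA and sequencing errors from the reads, aligned them with segemehl to GRCm39 and deposited counts of unambiguously assigned read pairs per gene (featureCounts, overlap of at least 10 bases, strand not stated). The authors also deposited TPM, scaled by length and used here for levels, and variance-stabilised values on a log2 scale, left unused. Symbols, transcripts and coordinates came from GENCODE M21 (GRCm38), which matched 91.4% of the identifiers.

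The tests used DESeq2 1.42.0 (R 4.3.3) on the deposited counts, as 1 fit over 12 libraries with the group as factor, median-of-ratios size factors, Wald tests, independent filtering at 0.05 and Benjamini-Hochberg adjustment over all genes. Log2 differences are unshrunken with standard errors. Alternatives were edgeR 4.0.16, limma 3.58.1 on log2(TPM + 1) or log2(TPM + 0.1) of genes with a TPM of at least 1 in 3 libraries, other scalings and filters, corrections for GC content or length, a replicate block and leaving out libraries. The tests were tried on simulated data. Sums with pseudogene copies, edgeR with a block and leaving out the libraries that stand apart were chosen after seeing the data.

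The genes named were, per comparison, up to 6 higher and 6 lower members with an adjusted p under 0.05 and a mean of at least 50 normalized counts, ranked by adjusted p; the 5 highest and 5 lowest members by TPM; paralog pairs, stalk genes, Rps6, Rpsa and Rps19bp1; and up to 3 genes each way of the other lists. Members called only without some libraries or with copies summed, the copies, and members named for an unadjusted p or for their copies were chosen after their values were seen. Members and lists were chosen with earlier results of these data known. Some genes that the rule names are not reported here.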

Additional observations from a re-analysis of the deposited data

How the results depend on the processing

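The medians of all 5 comparisons moved by less than the spread between libraries under every alternative run, but that of Ly6Chi minus Ly6Clo monocytes (0.12) was -0.15 without Ly6Clo replicate 2. For named genes, 643 of the recomputed values kept direction and side of the threshold, 46 lost the call, 4 gained one and 3 changed sign, all 3 with copies summed: Rpl12 (macrophages minus monocytes -0.54, Ly6Chi monocytes minus macrophages 0.54) and Rpl31 (Ly6Chi monocytes minus macrophages 0.95). Of the lost calls 17 were of Rpl12 in macrophages minus monocytes and 14 of Rpl31 in Ly6Chi monocytes minus macrophages, so most alternatives did not keep these calls. The same-numbered libraries do not share a stated source, and their deviations correlated at 0.25, 0.08 and 0.08 (macrophages) and 0.04, 0.00 and 0.05 (monocytes), so the replicate block does not mark a known pairing. Over all alternatives 9.47% to 27.4% of all genes were higher and 7.01% to 18.9% lower in macrophages minus monocytes, and 5.91% to 19.0% (Ly6Chi) and 5.96% to 19.0% (Ly6Clo) higher in monocytes minus macrophages (7.72% to 24.2% and 7.69% to 23.5% lower), while 0.125% to 4.14% were lower and 0.00% to 1.18% higher in eYFP+ minus eYFP- macrophages, and 1.68% to 6.88% lower and 1.12% to 6.72% higher in Ly6Chi minus Ly6Clo monocytes. With the replicate block the macrophages minus monocytes counts were 1 higher and 43 lower (beside 13.4% and 9.87% of all genes), Ly6Chi monocytes minus macrophages 38 and 2 (beside 8.54% and 10.9%), Ly6Clo monocytes minus macrophages 28 and 1 (beside 7.71% and 11.1%), and within the cell types 0 and 0 (macrophages) and 0 and 1 (monocytes). The replicate block with GC correction gave 1 higher member in macrophages and 1 lower in Ly6Chi monocytes minus macrophages. The edgeR block gave 1 higher in macrophages, 0 lower in Ly6Chi monocytes minus macrophages and 0 lower in Ly6Chi minus Ly6Clo monocytes, and there Rpl3l lost its call (adjusted p = 0.0719). In macrophages minus monocytes 1 member was higher with edgeR, total-count scaling, no independent filtering, or GC or length correction, and 0 with copies summed. In Ly6Chi monocytes minus macrophages 1 member was lower with GC or length correction and 0 with copies. In Ly6Clo monocytes minus macrophages 25 were higher with limma on log2(TPM + 0.1) (beside 13.0%) and 66 without both libraries that stand apart (beside 15.9%), and 0 were lower with length correction or copies. In Ly6Chi minus Ly6Clo monocytes 2 were lower with GC correction or copies, 4 without both libraries, and 1 was higher with length correction (beside 3.83%). In eYFP+ minus eYFP- macrophages 1 was lower with total-count scaling (Rplp0, adjusted p = 0.0303) or at least 10 counts in 3 libraries (Rplp0, adjusted p = 0.0205), and 7 without both libraries; the cause was not tested. Leaving out 1 library gave 0 to 2 lower in eYFP+ macrophages, 1 to 2 lower in Ly6Chi minus Ly6Clo monocytes, 1 to 2 higher and 39 to 69 lower in macrophages minus monocytes, 32 to 61 higher and 0 to 3 lower in Ly6Chi monocytes minus macrophages, and 23 to 63 higher and 0 to 1 lower in Ly6Clo monocytes minus macrophages. The counts of 23, 63 and 24 in the last came without Ly6Clo replicates 1, 2 and 3. Without Ly6Chi replicate 1, 2 or 3 there were 0, 1 and 1 lower in Ly6Chi monocytes minus macrophages. Fits on the libraries of a comparison alone were not run for macrophages minus monocytes, which uses all 12.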
